A study of Mus musculus with 16 samples.

Results

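Chemokines are small secreted proteins that steer migrating leukocytes through G protein-coupled receptors on their surface. Microglia, the resident macrophages of the brain, both secrete chemokines and carry receptors for them, and several of these genes are switched on when microglia meet amyloid plaques. The genes described here were 6 ligands, namely Ccl2, Ccl3, Ccl4, Ccl6, Ccl9 and Ccl12, and 3 receptors, namely Cxcr4, Ccr1 and Ccrl2. They were picked by symbol, with earlier results of these data known, and all 9 were present among the 17951 genes of the deposited table.

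The study sorted microglia from the brains of 5xFAD mice, which carry mutant human transgenes and deposit amyloid, and from WT mice under the same strain label. All mice were injected with Methoxy-X04 (Me-X04), a dye that crosses into the brain and stains amyloid, so that a stained microglial cell is one holding amyloid. The sort took live cells positive for CD11b, CD45 and CX3CR1, and RNA-seq was run on 3 groups: unstained cells of WT mice (WT, n = 7), unstained cells of transgenic mice (TG Me-X04-, n = 5) and stained cells of transgenic mice (TG Me-X04+, n = 4). The libraries of TG Me-X04- and TG Me-X04+ that share a number were taken to come from the same animal, giving 4 pairs. This rests on the number in their titles. By the labels the WT mice were 2 months old and the transgenic mice 6 months old, whereas the methods of the study give ages that differ from the labels and name no younger WT animals. If the labels hold, genotype and age cannot be told apart in either comparison with WT, and the 2 transgenic groups share their age by either source.

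Values are log2 RPKM, that is reads per kilobase of gene scaled to the library's size, on a log2 scale, so that levels can be compared between genes. A gene was called differentially expressed (DE) at an adjusted p-value under 0.05 with a log2 fold change (log2FC) of at least 0.7 in either direction, by limma over all 17951 genes. Between 15623664 and 27579017 reads per library fell on the listed genes. The share of reads from 24 mitochondrial genes was 11.0 to 24.1% in WT, 18.2 to 35.6% in TG Me-X04- and 27.2 to 44.8% in TG Me-X04+, so it moved with the groups. The libraries also fell into 2 sets by the first principal component, which held 37.8% of the variance within groups: set A held WT 1 to 3 and numbers 1 and 2 of both transgenic groups, and set B held the other 9 libraries. All 8 microglia markers were listed, with a summed RPKM of 4954 to 7232 in WT, 4428 to 8076 in TG Me-X04- and 5534 to 8076 in TG Me-X04+. Even so, P2ry12 and Tmem119 were DE lower in TG Me-X04+ than in WT, and Tmem119 was also DE lower than in TG Me-X04-. None of the 7 T and NK cell markers was listed. The 7 border-associated macrophage markers summed to 2.18 to 6.08 RPKM in WT, 1.46 to 7.33 in TG Me-X04- and 2.5 to 20.6 in TG Me-X04+, the 3 listed monocyte markers of 6 to 2.23 to 4.21, 1.45 to 9.16 and 0.953 to 8.66, and the 4 listed neutrophil markers of 8 to 67.2 to 116.9, 54.1 to 129.8 and 91.9 to 172.2. None of these 14 macrophage, monocyte and neutrophil genes was DE higher. From unstained to stained transgenic cells, 5 of 7 macrophage, 2 of 3 monocyte and 4 of 4 neutrophil genes had a positive log2FC (medians 0.43, 0.55 and 1.56). From WT to TG Me-X04+ it was 6, 2 and 4 of them (medians 1.26, 0.43 and 2.22). Their part in the chemokine levels was not tested. In sorted pools of this kind, more cells with a transcript and more transcript per cell cannot be told apart.

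The 6 ligands lie on mouse chromosome 11 in 2 groups about 1470 kb apart (GRCm38, GENCODE annotation), all as protein-coding genes. Ccl2 (82035571 to 82037453, plus strand) and Ccl12 (82101845 to 82103400, plus strand) are 64.4 kb from each other. Ccl9 (83572919 to 83578636, minus strand), Ccl6 (83587882 to 83593087, minus strand), Ccl3 (83647844 to 83649355, minus strand) and Ccl4 (83662584 to 83664683, plus strand) follow each other with gaps of 9.245, 54.8 and 13.2 kb. The receptors are dispersed, with Cxcr4 on chromosome 1 (128588199 to 128592293, minus strand) and Ccrl2 (111054486 to 111057519, minus strand) and Ccr1 (123962124 to 123968692, minus strand) on chromosome 9. Ccl2 overlaps Gm17268, and Ccl6 overlaps E230016K23Rik, each on the other strand, and whether the counting used strand is not given in the sources used here. Neither overlapping gene was listed. Of the 50-base stretches of each gene's transcripts, 0 were shared with other genes for 8 of the 9 genes, and 1.97% for Ccl9.

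Promoter sequences, from 250 bases before to 50 bases after the annotated start, were available for 7 of the 9 genes (RefSeq, GRCm38.p6). Those of 4 ligands and 2 receptors are printed to set neighbouring genes with unlike responses beside each other, Ccl6 against Ccl9 above all. They span chr11:83649329-83649628 for Ccl3, chr11:83593038-83593337 for Ccl6, chr11:83578587-83578886 for Ccl9, chr11:82101595-82101894 for Ccl12, chr1:128592250-128592549 for Cxcr4 and chr9:111057469-111057768 for the most upstream of 3 Ccrl2 starts, and all are read in the direction of transcription. Capitals mark matches on either strand to kappa-B (GGG and CC with 5 bases of any kind between them), AP-1 (TGANTCA), the hypoxia response core (ACGTG), an E-box (CATGTG) or TATAAA, with overlapping matches joined.
Ccl3: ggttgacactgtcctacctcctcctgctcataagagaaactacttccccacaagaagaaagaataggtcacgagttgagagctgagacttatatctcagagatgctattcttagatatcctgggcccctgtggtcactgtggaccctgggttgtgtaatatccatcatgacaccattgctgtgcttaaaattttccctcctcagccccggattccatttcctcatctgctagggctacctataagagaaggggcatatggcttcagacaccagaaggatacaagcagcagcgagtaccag
Ccl6: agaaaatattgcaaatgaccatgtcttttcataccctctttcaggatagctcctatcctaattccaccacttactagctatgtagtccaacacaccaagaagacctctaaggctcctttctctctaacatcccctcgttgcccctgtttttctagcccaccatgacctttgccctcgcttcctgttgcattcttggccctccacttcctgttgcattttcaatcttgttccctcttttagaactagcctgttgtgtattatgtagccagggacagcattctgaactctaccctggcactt
Ccl9: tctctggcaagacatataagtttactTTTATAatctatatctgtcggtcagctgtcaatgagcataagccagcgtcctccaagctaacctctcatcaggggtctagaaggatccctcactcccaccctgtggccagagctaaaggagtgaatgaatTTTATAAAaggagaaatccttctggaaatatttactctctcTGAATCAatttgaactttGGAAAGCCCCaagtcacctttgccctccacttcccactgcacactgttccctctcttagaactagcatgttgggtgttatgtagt
Ccl12: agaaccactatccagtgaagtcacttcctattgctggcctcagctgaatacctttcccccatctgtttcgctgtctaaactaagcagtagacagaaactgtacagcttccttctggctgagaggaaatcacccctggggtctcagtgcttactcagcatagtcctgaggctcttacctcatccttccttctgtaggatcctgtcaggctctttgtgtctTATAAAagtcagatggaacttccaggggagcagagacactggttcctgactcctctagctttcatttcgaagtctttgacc
Cxcr4: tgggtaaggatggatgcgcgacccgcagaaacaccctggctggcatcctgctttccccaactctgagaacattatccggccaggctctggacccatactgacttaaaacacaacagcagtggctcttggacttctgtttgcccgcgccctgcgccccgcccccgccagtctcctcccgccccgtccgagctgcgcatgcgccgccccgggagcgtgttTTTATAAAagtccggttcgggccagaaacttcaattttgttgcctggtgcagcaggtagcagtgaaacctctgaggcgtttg
Ccrl2: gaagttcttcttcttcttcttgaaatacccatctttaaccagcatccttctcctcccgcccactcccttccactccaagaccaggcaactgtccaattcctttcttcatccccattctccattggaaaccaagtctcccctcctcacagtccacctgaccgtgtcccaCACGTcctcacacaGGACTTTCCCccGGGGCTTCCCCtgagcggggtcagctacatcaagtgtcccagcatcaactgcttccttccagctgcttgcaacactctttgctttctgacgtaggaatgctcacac
The kappa-B letters occurred in the printed windows of Ccrl2, 3 times, and of Ccl9, once, and in that of Ccr1, against 50.8% of 32851 promoters of the same length. Only Ccl9 of the 7 genes held the AP-1 letters, which 7.81% of promoters hold. TATAAA was found about 30 bases before the start in Cxcr4 and Ccl12 and in Ccl9 further upstream, 3 times counting both strands, against 13.6% of all promoters, and the ACGTG letters occurred in Ccrl2 alone, against 19.6%. Ccl3 and Ccl6 held none of the 5 motifs in this window. The E-box letters, held by 14.2% of promoters, were in none of the 7. In a local alignment of each of the 21 pairs of genes, Ccl9 and Ccl6 had the highest alignment score (37). Of their 74 aligned positions 59 were identical (79.7%), from 59 bases before to 14 after the Ccl6 start. Some other pairs were more alike in percent over shorter stretches, up to 100% over 11 positions for Cxcr4 and Ccl9.

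**Figure D1:**
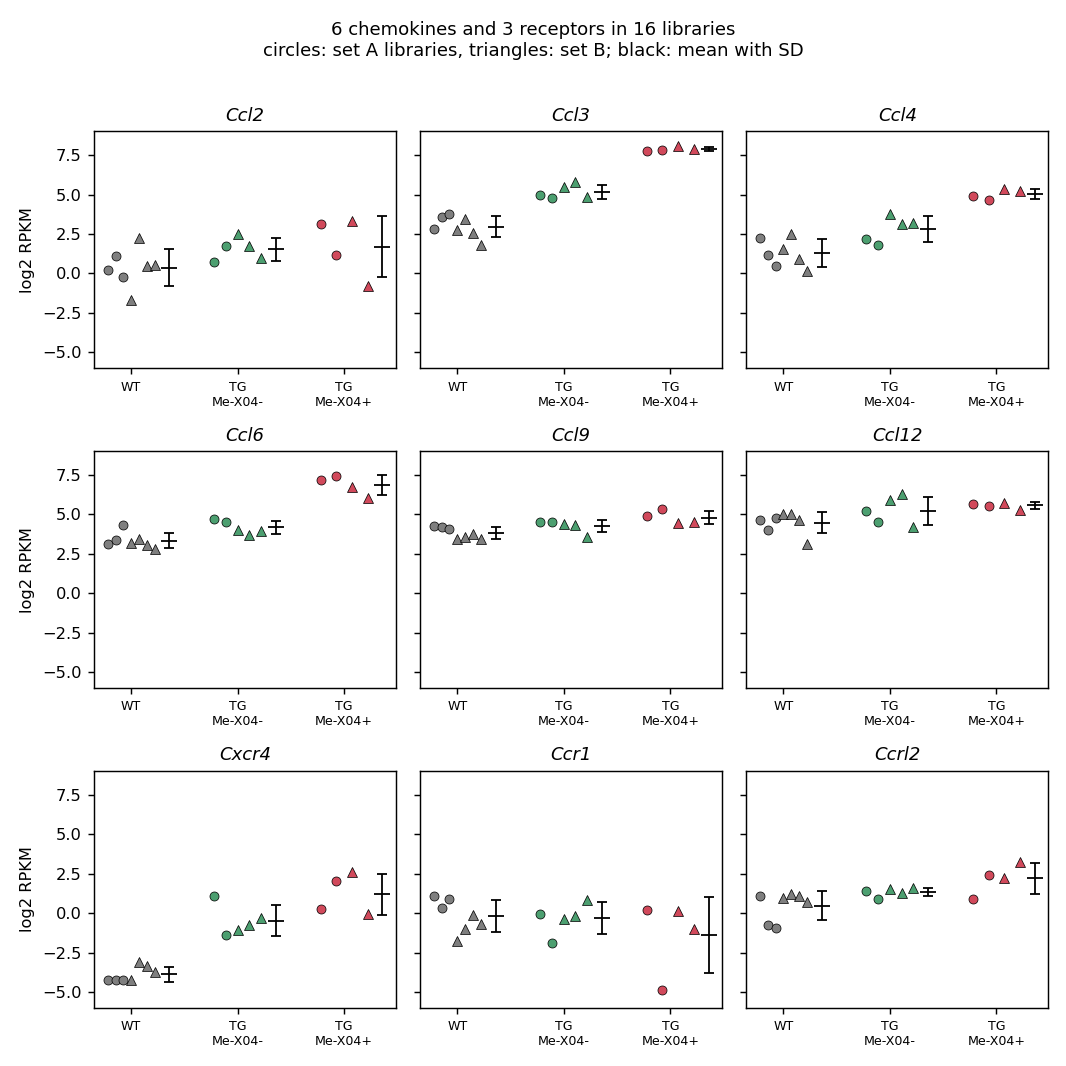
Deposited log2 RPKM (vertical axis) of the 6 ligands (top rows) and 3 receptors (bottom row) in each of the 16 libraries, by group, with circles for set A and triangles for set B and black bars for the mean ± SD. Mean Ccl3 is 2.96 in WT, 5.16 in unstained and 7.89 in stained transgenic cells, with no overlap between groups, Ccl6 stands apart in TG Me-X04+ at 6.01 or more, and Cxcr4 has 0 to 3 reads in each of the 7 WT libraries.

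Ccl3, also called macrophage inflammatory protein 1 alpha, was the ligand that differed most between the groups. It attracts monocytes and T cells, and Ccr1 is one of its receptors. In WT its level ran from 1.80 to 3.75 log2 RPKM with a median of 2.82, on 62 to 213 reads. In unstained transgenic cells it was 4.96, 4.78, 5.45, 5.77 and 4.84, and in stained cells 7.79, 7.80, 8.08 and 7.88, on 2243 to 4735 reads. No library of one group reached the range of another, and the TG Me-X04+ libraries were the least spread, with an SD of 0.13 against 0.43 in TG Me-X04- and 0.68 in WT.

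TG Me-X04- exceeded WT by a log2FC of 2.20 ± 0.29 (SE), or 4.58-fold (limma adjusted p = 0.00157), and TG Me-X04+ exceeded TG Me-X04- by a further 2.73 ± 0.33, or 6.62-fold (adjusted p = 0.00023). TG Me-X04+ thus stood 30.4-fold above WT (log2FC 4.92 ± 0.31, adjusted p = 3.59e-08). Within the 4 animals the stained cells were higher by 2.83, 3.03, 2.63 and 2.11, so in 4 of 4. Within set A the 2 steps were 1.49 and 2.93 and within set B 2.70 and 2.62. With set A alone (3 WT and 2 TG Me-X04- libraries) the first step was no longer DE (adjusted p = 0.169). In that fit 0 of all genes were DE for the first step.

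Ccl4 (macrophage inflammatory protein 1 beta), the divergent neighbour of Ccl3 and likewise an attractant of leukocytes, moved in the same order at a lower level. WT libraries ranged from 0.12 to 2.51 log2 RPKM with a median of 1.17, on 12 to 94 reads. TG Me-X04- libraries gave 2.19, 1.81, 3.75, 3.15 and 3.19, and TG Me-X04+ libraries 4.88, 4.63, 5.38 and 5.23. The stained group stood clear of both others, while TG Me-X04- overlapped WT through its 2 set A libraries.

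Ccl4 was DE higher in stained than in unstained transgenic cells at a log2FC of 2.21 ± 0.47 (adjusted p = 0.0107) and in stained than in WT cells at 3.75 ± 0.44 (adjusted p = 2.17e-05). Against WT, TG Me-X04- differed by 1.54 ± 0.41, with a 95% interval of 0.67 to 2.41, and did not pass (adjusted p = 0.26). Stained cells were higher in 4 of 4 animals, by 1.63 to 2.82. The call in the comparison of stained with unstained transgenic cells was lost when libraries were scaled to their reads outside mitochondrial genes (log2FC 1.82, adjusted p = 0.0528), with library weights (log2FC 2.01) and with set A alone (2.76, adjusted p = 0.0774).

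Ccl6, a C-C chemokine of mouse myeloid cells that binds Ccr1, showed a difference between stained and unstained transgenic cells almost as large as that of Ccl3. Its WT level was 2.83 to 4.35 log2 RPKM with a median of 3.21. The top of that range was WT replicate 3, and the other 6 WT libraries, at 2.83 to 3.45, lay below every transgenic library. TG Me-X04- libraries were at 4.74, 4.49, 3.98, 3.72 and 3.94, inside or just above the WT range, and TG Me-X04+ libraries at 7.20, 7.46, 6.71 and 6.01, all above every unstained library. The log2FC of TG Me-X04+ over TG Me-X04- was 2.67 ± 0.33, or 6.37-fold (adjusted p = 0.00023), with 4 of 4 animals higher by 2.29 to 2.97.

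The step from WT to TG Me-X04- was smaller for Ccl6, at 0.84 ± 0.28 with a 95% interval of 0.24 to 1.44, and did not pass (adjusted p = 0.602). The difference between the 2 steps of Ccl6 was 1.83 ± 0.53 in favour of the second (unadjusted p = 0.00307 by limma), which did not hold over all genes (adjusted p = 0.562). For Ccl3, Ccl4 and Cxcr4 the same difference was 0.53 ± 0.54, 0.68 ± 0.77 and −1.72 ± 1.02, each with an interval spanning 0. No gene of the 17951 passed for this difference in limma, while 956 had an unadjusted p under 0.05.

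Ccl9, whose gene lies next to Ccl6 and whose product also binds Ccr1, differed less between the groups. WT libraries ran from 3.42 to 4.26 log2 RPKM with a median of 3.73, TG Me-X04- libraries were 4.52, 4.55, 4.39, 4.35 and 3.59, and TG Me-X04+ libraries 4.89, 5.36, 4.43 and 4.52. The stained libraries lay above all WT libraries but overlapped TG Me-X04-. Ccl9 was DE in stained against WT cells at a log2FC of 0.98 ± 0.24 (adjusted p = 0.0106). The 2 single steps were 0.46 ± 0.23 (adjusted p = 0.999) and 0.52 ± 0.26 (adjusted p = 0.303), the latter positive in 4 of 4 animals at 0.03 to 0.81. The call against WT was lost without TG Me-X04+ replicate 2 (log2FC 0.80) and under scaling to non-mitochondrial reads (log2FC 0.68, under the fold threshold).

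Ccl12 and Ccl2, monocyte chemoattractants from the other group on chromosome 11 and ligands of Ccr2, were not DE in any of the 3 comparisons. Ccl12 was the most abundant ligand of WT cells, at 3.15 to 5.03 log2 RPKM with a median of 4.65. It stood at 5.22, 4.54, 5.94, 6.30 and 4.18 in TG Me-X04- and at 5.68, 5.54, 5.75 and 5.30 in TG Me-X04+. Its stained and WT groups did not overlap, and the log2FC of 1.11 ± 0.39 missed the threshold (adjusted p = 0.0683), although it was called in a fit of the 2 groups alone (adjusted p = 0.0411) and with a term for the 2 sets (adjusted p = 0.0421). Between stained and unstained transgenic cells it differed by 0.33 ± 0.42 with an interval of −0.55 to 1.21 (adjusted p = 0.734), and 2 of 4 animals were higher. That sign turned under quantile normalization (−0.082) and under scaling to non-mitochondrial reads (−0.060).

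Ccl2 was low and uneven. The WT range was −1.67 to 2.21 log2 RPKM with a median of 0.46, on 6 to 133 reads, TG Me-X04- libraries were 0.70, 1.76, 2.52, 1.71 and 0.96, and TG Me-X04+ libraries 3.14, 1.14, 3.32 and −0.81. All 3 groups overlapped, and the stained libraries spanned the widest range. Its log2FC was 1.16 ± 0.69 for TG Me-X04- over WT (adjusted p = 0.999), 0.16 ± 0.79 for TG Me-X04+ over TG Me-X04- (interval −1.51 to 1.83, adjusted p = 0.942) and 1.32 ± 0.74 for TG Me-X04+ over WT (adjusted p = 0.264). The sign of the second turned with library weights (−0.29), voom (−0.022), scaling to non-mitochondrial reads (−0.23), set B alone (−0.48) and the omission of single libraries, and without TG Me-X04+ replicate 4 the third was called (log2FC 2.16).

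**Figure D2:**
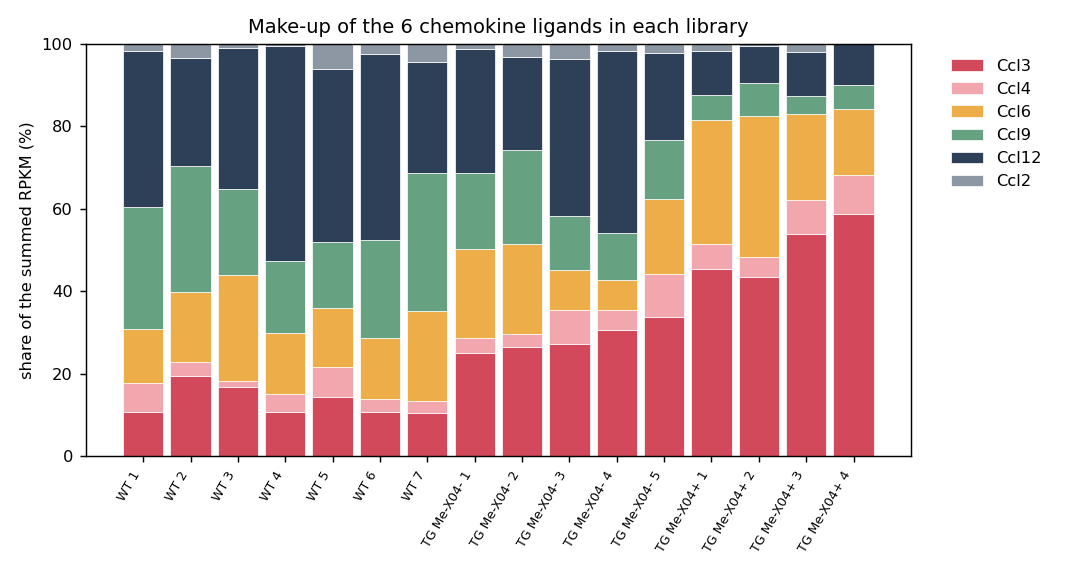
Share of the summed RPKM of the 6 ligands (vertical axis, %) held by each ligand in each library, by group and replicate number. Ccl12 and Ccl9 fill most of the WT bars, and Ccl3 takes 43.5 to 58.8% of every TG Me-X04+ bar.

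The make-up of the ligand pool differed between the groups. Summed over the 6 ligands, the level was 32.3 to 79.4 RPKM in WT (median 61.9), 84.7 to 178.1 in TG Me-X04- (median 123.7) and 399.5 to 513.7 in TG Me-X04+ (median 494.3), with no overlap. In WT the highest ligand was Ccl12 in 5 libraries and Ccl9 in 2, in TG Me-X04- it was Ccl12 in 3 and Ccl3 in 2, and in TG Me-X04+ it was Ccl3 in 4 of 4.

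Ccl3 held 13.3% ± 3.65 (SD, n = 7) of the ligand RPKM in WT, 28.6% ± 3.47 (n = 5) in unstained and 50.4% ± 7.17 (n = 4) in stained transgenic cells, and its shares did not overlap between groups. Ccl12 went the other way, from 37.8% ± 9.55 over 31.1% ± 9.89 to 10% ± 0.748, as did Ccl9, from 24.5% ± 6.88 over 16% ± 4.59 to 6.02% ± 1.52, although neither fell in level. Ccl6 held 17.3%, 15.7% and 25.4% on average, Ccl4 4.28%, 6.13% and 7.12%, and Ccl2 2.71%, 2.40% and 1.07%. These shares are within a library and do not depend on how libraries were scaled to each other.

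Cxcr4 encodes the receptor of Cxcl12 and was the receptor with the largest difference. It was all but undetected in WT, with 0 reads in 4 libraries and 3, 2 and 1 reads in the other 3. TG Me-X04- libraries held 62, 12, 21, 25 and 34 reads (1.09, −1.37, −1.07, −0.74 and −0.29 log2 RPKM), and TG Me-X04+ libraries held 28, 108, 249 and 38 reads (0.29, 2.02, 2.60 and −0.08). Every transgenic library lay above every WT library, while the 2 transgenic groups overlapped through replicate 1 of TG Me-X04-.

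Per scaled library size, the 154 reads of TG Me-X04- against 6 of WT gave a ratio of 32.9 (exact 95% counting interval 14.8 to 91.1), and the 423 of TG Me-X04+ a ratio of 137.8 (62.8 to 377.7), intervals that cover counting error only. The fitted log2FC, which depends on the prior count that the authors added, was 3.40 ± 0.54 (adjusted p = 0.00886) and 5.08 ± 0.58 (adjusted p = 1.7e-05). The first call was lost with a pseudocount of 1 RPKM (log2FC 0.74), with voom on the recovered reads (4.61), with the replicate number as a fixed term (3.53) and within either set alone (4.10 and 2.90). For this comparison 0 of all genes were DE within set A alone and 19 within set B alone. Cxcr4 left the test under a filter for a mean log2 RPKM of at least 0. Stained over unstained transgenic cells differed by 1.68 ± 0.62 with an interval of 0.37 to 3.00 and did not pass (adjusted p = 0.138), and the 4 animals gave −0.80, 3.39, 3.67 and 0.66.

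Ccrl2, an atypical receptor that binds the chemoattractant chemerin without signalling, showed a more gradual pattern. WT libraries were between −0.92 and 1.18 log2 RPKM with a median of 0.95, those of TG Me-X04- were 1.41, 0.89, 1.5, 1.28 and 1.62, and those of TG Me-X04+ 0.88, 2.45, 2.24 and 3.26. Neighbouring groups overlapped, and replicate 1 of TG Me-X04+ fell inside the WT range. TG Me-X04+ exceeded WT by 1.73 ± 0.48 (adjusted p = 0.0205), while the single steps of 0.86 ± 0.45 (adjusted p = 0.999) and 0.87 ± 0.51 (adjusted p = 0.393) did not pass. With set B alone the second of these was called (log2FC 1.28, adjusted p = 0.025). The call against WT was lost without TG Me-X04+ replicate 2 (log2FC 1.65) or replicate 4 (1.38), in a fit of the 2 groups alone (1.73), with set A alone (1.85) and under scaling to non-mitochondrial reads (1.43). Of the chemerin genes Rarres2 (chemerin itself) and Cmklr1 (its signalling receptor), neither was DE in any comparison.

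Ccr1, the receptor that Ccl3, Ccl6 and Ccl9 share, passed no test. The WT range was −1.76 to 1.09 log2 RPKM with a median of −0.15, TG Me-X04- libraries were −0.04, −1.92, −0.36, −0.15 and 0.84, and TG Me-X04+ libraries 0.21, −4.89, 0.16 and −1.0, where the second had 0 reads and the others 42, 70 and 31. The groups overlapped throughout. Its log2FC was −0.15 ± 0.79, −1.06 ± 0.91 (interval −2.97 to 0.86) and −1.20 ± 0.85 in the 3 comparisons (adjusted p = 0.999, 0.591 and 0.396), and without the library at 0 reads the second was 0.11.

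**Figure D3:**
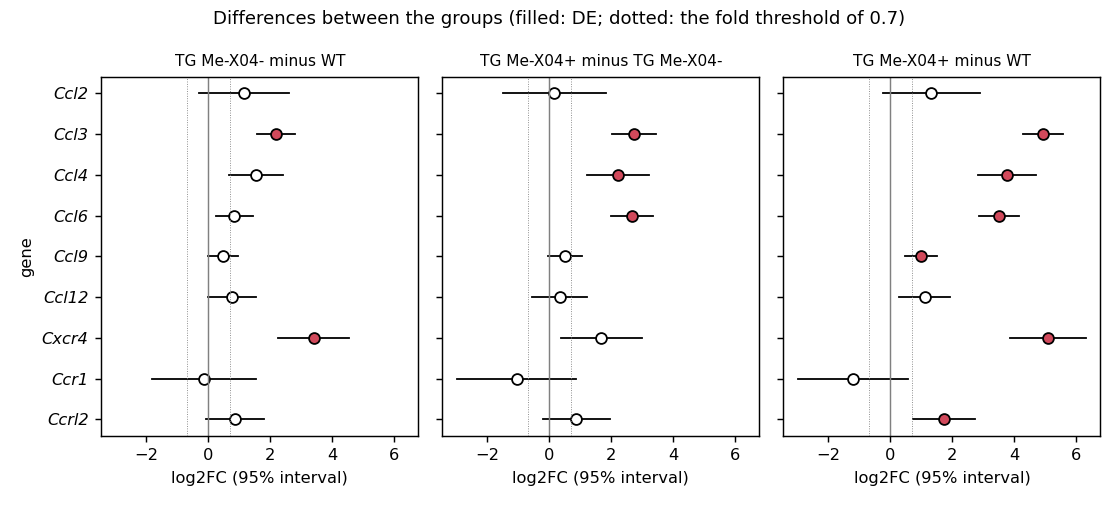
Log2FC (horizontal axis) with its 95% interval for each of the 9 genes in the 3 comparisons, by limma; filled points are DE and dotted lines mark a log2FC of 0.7 in either direction. Ccl3 is filled in all 3 panels, Cxcr4 in both comparisons with WT, and the receptors are open between stained and unstained transgenic cells.

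Counted together, 3 of 9 genes were DE when stained were compared with unstained transgenic cells, all of them ligands and all higher, where 5.49% of the 17951 genes were DE in either direction and 3.44% higher. For TG Me-X04- against WT it was 2 of 9, Ccl3 and Cxcr4, both higher, where 0.201% of all genes were DE and 0.189% higher. For TG Me-X04+ against WT it was 6 of 9, all higher, with 4 of 6 ligands and 2 of 3 receptors, where 14.3% of all genes were DE and 8.25% higher. The groups did not overlap, in the same order of comparisons, for 3, 2 and 6 of the 9 genes, all higher, against 4.8%, 0.652% and 6.56% of all genes. For the difference of the steps it was 0 of 9, with 0% of all genes. The median log2FC of the 6 ligands was 1.37, 1.00 and 2.42 in the same order of comparisons and that of the 3 receptors 0.87, 0.86 and 1.73, against −0.09, 0.01 and −0.11 over all genes. The 3 comparisons share libraries, so their values are not independent of one another. Since the 9 genes were picked with earlier results known, these counts describe them and are no test of chemokine genes at large. Scaling each library to its reads outside mitochondrial genes moved the median of all genes by −0.39, 0.09 and −0.30, and under it Ccl3 (log2FC 2.33) and Ccl6 (2.28) remained DE between stained and unstained transgenic cells.

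Ordered by mean level, WT cells had Ccl12 (4.46 ± 0.67 log2 RPKM, SD), Ccl9 (3.82 ± 0.36), Ccl6 (3.33 ± 0.49), Ccl3 (2.96 ± 0.68), Ccl4 (1.28 ± 0.88), Ccrl2 (0.48 ± 0.91), Ccl2 (0.37 ± 1.19), Ccr1 (−0.18 ± 1.04) and Cxcr4 (−3.88 ± 0.49). Among neighbours of that order, Ccl3 lay above Ccl4 and Ccr1 above Cxcr4 in 7 of 7 libraries, and the other neighbours changed places in 1 to 3 libraries. In TG Me-X04+ the order was Ccl3 (7.89 ± 0.13), Ccl6 (6.85 ± 0.64), Ccl12 (5.57 ± 0.20), Ccl4 (5.03 ± 0.34), Ccl9 (4.80 ± 0.42), Ccrl2 (2.21 ± 0.99), Ccl2 (1.69 ± 1.94), Cxcr4 (1.21 ± 1.30) and Ccr1 (−1.38 ± 2.40). There the order of the first 4 held in 4 of 4 libraries, and Ccl4 against Ccl9, Ccrl2 against Ccl2 and Ccl2 against Cxcr4 each split 2 to 2. Cxcr4 passed Ccr1 in 4 of 4 stained libraries, 2 of 5 TG Me-X04- libraries and 0 of 7 WT libraries.

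Of 35 other chemokine ligands, 12 were listed. Of these, 0 were DE for TG Me-X04- against WT, and Cxcl16 alone was DE for stained against unstained transgenic cells. Over all genes 0.201% and 5.49% were DE in these comparisons. Cxcl16, a membrane-bound chemokine that is also a scavenger receptor, ran from 2.65 to 3.11 log2 RPKM in WT (median 2.94), was 3.65, 3.79, 3.38, 3.52 and 2.78 in TG Me-X04- and 4.85, 4.34, 4.30 and 4.45 in TG Me-X04+. Stained libraries lay above all others, with a log2FC of 1.06 ± 0.22 over TG Me-X04- (adjusted p = 0.00777) and 1.59 ± 0.20 over WT. The first call was lost in a fit of the 2 groups alone, with set A alone (0.87) and under scaling to non-mitochondrial reads (0.67).

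Against WT, TG Me-X04+ had 7 of these 12 ligands DE, where 14.3% of all genes were DE. Higher were Cxcl16, Cxcl9 (log2FC 4.21 ± 0.81, adjusted p = 0.00162), Cxcl10 (2.36 ± 0.77, adjusted p = 0.0488) and Cxcl13, the B cell attractant (3.53 ± 0.88, adjusted p = 0.0106). Cxcl9 and Cxcl10, which interferon induces and which bind Cxcr3, had means of −2.46 and −1.65 log2 RPKM in WT and 0.50 and 1.10 in TG Me-X04-. These differences of 2.96 and 2.75 did not pass (limma adjusted p = 0.218 and 0.235). In TG Me-X04+ the means were 1.75 and 0.71. Lower were Ccl24 (−1.79), Ccl28 (−2.61) and Cxcl17 (−3.50), fitted values that depend on the prior count, since Ccl24 and Cxcl17 had 41 and 8 reads over the 4 stained libraries and Ccl28 had 0, against 263, 268 and 101 over the WT libraries. Cxcl13 was also a gene of few reads, with 0 reads in 5 of 7 WT libraries, and its call was lost with library weights (log2FC 2.44, adjusted p = 0.237), a pseudocount of 1 (1.08, adjusted p = 0.0948) and set B alone (2.47, adjusted p = 0.193). The call of Cxcl10 was lost with the animal as a random block (2.23, adjusted p = 0.0771), with set A alone (1.68, adjusted p = 0.454) and in 7 other alternatives, and TG Me-X04+ replicate 1 lay inside the WT range. It was also lost without any 1 of WT replicates 2 to 7 or TG Me-X04+ replicates 2 to 4 (log2FC 1.88 to 2.51), that of Ccl24 without WT replicate 5, 6 or 7 or TG Me-X04+ replicate 2 or 3 (−1.77 to −1.40) and that of Ccl28 without TG Me-X04+ replicate 1, 2 or 3 (−2.61). Both were also lost with library weights, quantile normalization and either set alone.

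Receptors outside the 9 genes were lower rather than higher where they were DE. Of 21 such receptors 13 were listed, and their median log2FC was −1.20 between stained and unstained transgenic cells and −1.57 between TG Me-X04+ and WT, with 12 of 13 negative in each. Over all genes 44.4% and 44.1% were positive. In these comparisons 1 and 6 of the 13 were DE lower, against 369 and 1081 of all 17951 genes. TG Me-X04+ replicates 1 and 2 had 1831 and 1781 genes at 0 reads, with Ccr1l1, Ccr3 and Ccr9 among them in both. WT libraries had 55 to 1381 such genes and TG Me-X04- libraries 83 to 703. The part of few reads in these differences was not tested. Ccr2, the receptor of Ccl2 and Ccl12 and one of the monocyte markers above, ran from 1.05 to 2.00 log2 RPKM in WT (median 1.54), was 1.39, 0.62, 1.06, 0.46 and 1.00 in TG Me-X04- and −0.42, 0.13, 0.30 and −0.11 in TG Me-X04+. Every stained library lay below every unstained one, while WT and TG Me-X04- overlapped.

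From WT to stained cells the log2FC of Ccr2 was −1.57 ± 0.28 (adjusted p = 0.000857). The differences between stained and unstained transgenic cells (−0.93 ± 0.30, interval −1.56 to −0.30, adjusted p = 0.0812) and between TG Me-X04- and WT (−0.64 ± 0.26, adjusted p = 0.822) did not pass. Among the others DE lower in TG Me-X04+ than in WT were Ccr1l1 (−2.68), Ccr3 (−4.12), Ccr9 (−3.06) and Cxcr6 (−1.48), the receptor of Cxcl16. Ccr3 had 1 read over the 4 stained libraries and 337 over the WT libraries, a ratio of 0.00580 per scaled library size (exact 95% counting interval 0.000146 to 0.0325). That interval covers counting error only, and 157 of the WT reads were in WT replicate 2, against 14 to 53 in each other WT library. Ccr9 differed by −5.60 in set A and by −0.57 in set B, where it was not DE, and TG Me-X04+ replicate 4, at 0.59 log2 RPKM on 165 reads, lay above every WT library. The call of Ccr9 was lost without WT replicate 1, 2, 4 or 7 or TG Me-X04+ replicate 1 or 2 (−3.07 to −2.28) and with library weights (−1.48), and that of Cxcr6 without WT replicate 1, 4, 5, 6 or 7 or TG Me-X04+ replicate 1 or 4 (−1.50 to −1.04) and with set A alone (−1.50, adjusted p = 0.294). That of Ccr1l1 was lost with library weights (−2.15), quantile normalization (−1.98) and either set alone (−3.32 and −2.07). The call of Ccr2 was lost with set A alone (−1.77, adjusted p = 0.0884). None of the 13 was DE between TG Me-X04- and WT, where 0.201% of all genes were DE.

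**Figure D4:**
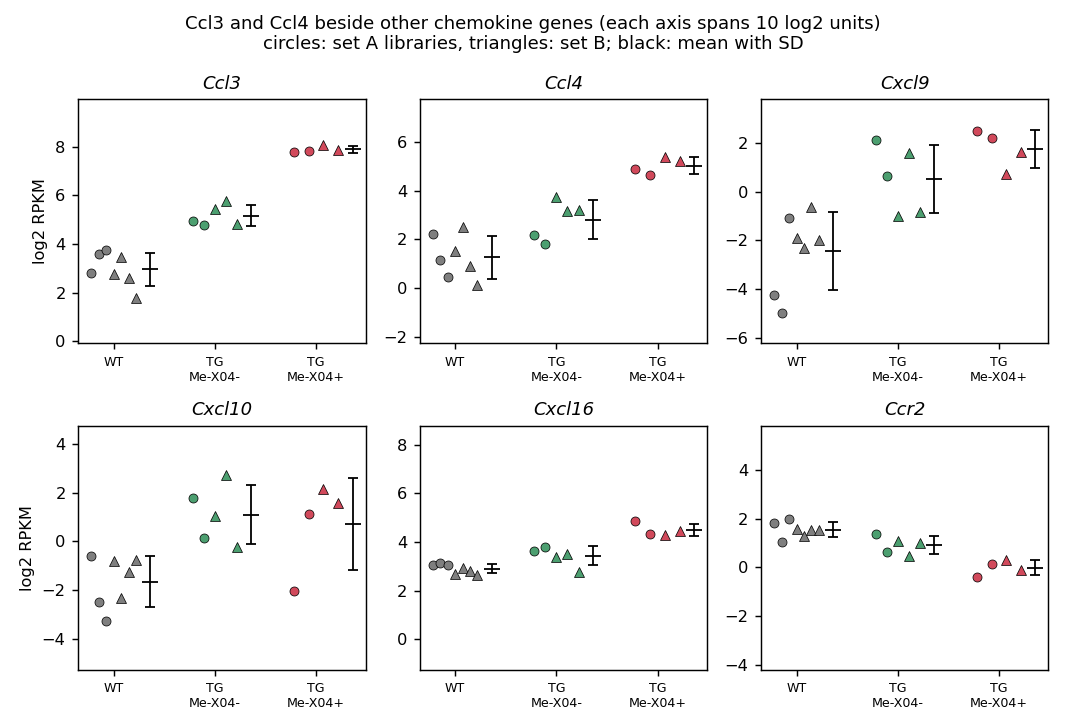
Deposited log2 RPKM (vertical axis, each spanning 10 units) of Ccl3, Ccl4, Cxcl9, Cxcl10, Cxcl16 and the receptor Ccr2 in each library by group, with circles for set A, triangles for set B and black bars for the mean ± SD. Mean Ccr2 goes from 1.55 in WT to 0.91 and −0.03 in the transgenic groups, whereas mean Ccl3, Ccl4 and Cxcl16 are highest in TG Me-X04+.

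Downstream of the receptors, 30 of 34 genes of G protein, arrestin, receptor kinase and PI3K-gamma signalling were listed. Between stained and unstained transgenic cells 2 were DE higher, both G protein gamma subunits, Gng12 (log2FC 1.63 ± 0.23) and Gng5 (1.07 ± 0.22), and 2 lower, among them the PI3K-gamma adaptor Pik3r6 (−1.06 ± 0.27). Against WT, 2 were DE higher in TG Me-X04+ (Gng12 at 2.02 and Gng5 at 1.07) and 7 lower, with Pik3r6 at −1.31 and the receptor kinase Grk2 at −1.30 the furthest. None was DE between TG Me-X04- and WT. The median over the 30 was −0.29, −0.12 and −0.44 in the order stained over unstained, TG Me-X04- over WT and TG Me-X04+ over WT. Over all genes the medians were −0.09, 0.01 and −0.11 in that order, and 5.49%, 0.201% and 14.3% were DE. With 0.201% of all genes DE, the lack of calls in the second comparison does not set these 30 genes apart. Between stained and unstained transgenic cells the calls of Gng12 (1.66, adjusted p = 0.0581) and Gng5 (0.93, adjusted p = 0.231) were lost with set A alone, that of Gng5 also under scaling to non-mitochondrial reads (0.68), and that of Pik3r6 with either set alone (−1.25 and −0.79), in a fit of the 2 groups alone and without TG Me-X04- replicate 3, 4 or 5 or TG Me-X04+ replicate 1, 2 or 3 (−1.07 to −0.79). The call of Grk2 was lost without TG Me-X04+ replicate 1 (−0.99) or 2 (−1.17), with set A alone (−1.42) and with the replicate number as a fixed term (−1.01).

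Lists of genes that stress of the tissue or NF-kappa-B could move were read beside these. Of 16 listed immediate early genes, which cell isolation can induce, 1 was DE between stained and unstained transgenic cells (Atf3, higher) and none between TG Me-X04- and WT. Between TG Me-X04+ and WT, 3 were DE higher and 3 lower. Over all genes 5.49%, 0.201% and 14.3% were DE in these comparisons. The summed RPKM of the 16 overlapped in all groups (248.2 to 421.8, 198.4 to 448.7 and 267.9 to 378.6). Of 15 listed NF-kappa-B targets outside the chemokines, 1 was DE higher and 1 lower between stained and unstained transgenic cells. Between TG Me-X04+ and WT, 2 were DE higher and 2 lower, and none was DE between TG Me-X04- and WT. The summed RPKM of the 15 was 94.9 to 120 in WT, 91.5 to 130 in TG Me-X04- and 97.7 to 141.8 in TG Me-X04+. Its medians were 103.5, 101.3 and 132.4. The part of either list in the chemokine levels was not tested.

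For 8 of the 9 genes, all but Ccl9, the profile most like each is given, sought among genes outside the chemokine lists, by the mean absolute difference of the deviations from a gene's own mean over the 16 libraries. For Ccl3 and Cxcr4 it was Clec7a, a fungal glucan receptor (0.56 and 0.67 log2 units). For Ccl6 it was Ank, a pyrophosphate transporter (0.27), for Ccl4 the tetraspanin Cd63 (0.50) and for Ccrl2 the diacylglycerol kinase Dgkz (0.29). For Ccl2 it was Tsta3 (0.68), for Ccl12 Rpl35a-ps3 (0.37) and for Ccr1 Gm26770 (0.46). The distances are a description over libraries that share depth and set, and the nearest gene was a different one under quantile normalization for Ccl2, Ccl4, Ccl12 and Cxcr4 and with a pseudocount of 1 for Ccl3, Cxcr4 and Ccr1.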

How the data were processed

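Total RNA of sorted mouse microglia was amplified (Ovation RNA-Seq System V2) and sequenced on 2 instruments that the sources used here do not assign to libraries. Per the labels and the methods of the study, the authors trimmed reads (Trim Galore 0.4.4), aligned them to GRCm38 (STAR 2.5.4b), counted them per gene (featureCounts), removed genes with few reads and scaled by TMM (edgeR 3.24.3). The deposited values are log2 RPKM with a small prior count added by the authors. The table also holds columns of the authors' own log2 fold changes, p-values and test scores, which were deposited beside the values and not used.

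The 9 genes, the gene lists and the tests were chosen with earlier results of these data known. In 100% of the values of each library, equal steps of the linear values gave whole reads (tolerance 0.01), so counts were recovered for depth and for one alternative. No 2 libraries of a group agreed within sampling noise (smallest chi-square per degree of freedom 15.8). Because the unit is a log2 value, limma 3.58.1 (R 4.3.3) with a variance trend was fitted to all 16 libraries and 3 groups in place of the count test of the study, two-sided, with Benjamini-Hochberg adjustment over 17951 genes and the study's limits of 0.05 and 0.7. The difference of the second step (TG Me-X04+ minus TG Me-X04-) and the first (TG Me-X04- minus WT) was tested in the same fit. Per the methods of the study a replicate is 1 mouse. Libraries of the 2 transgenic groups with 1 number were taken to be from 1 animal. Their deviations from the group means correlated at 0.317 on average (0.292 to 0.329, 4 pairs). Libraries of different numbers gave 0.272 (0.221 to 0.332) in the same set and −0.282 across sets. The ranges within a set overlap, so the correlations do not settle the pairing.

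Named genes were all 9, every other listed chemokine ligand or receptor that was DE, at most the 3 largest DE changes per comparison in the chemerin and signalling lists, and the nearest profile of each of the 9. Results on some genes that this rule names are not reported here, although counts and medians over their lists include them. On simulated data of 17951 genes, a log2 change of 1.5 was given to 200 genes, drawn only from genes above a lower limit on mean reads. The fit found 48% of them for stained against unstained transgenic cells, 65% for TG Me-X04- against WT and 59.5% for TG Me-X04+ against WT. The simulated libraries held no split into 2 sets, so these rates need not hold for the real libraries or for genes with few reads. Promoters (Python 3.11.15) came from RefSeq tables. Alternatives are described in the closing section. The split into 2 sets, the fits within each set, the scaling to non-mitochondrial reads and the TATAAA motif were added after seeing the data.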

Additional observations from a re-analysis of the deposited data

Results flagged for a closer look

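Each of the 9 genes was screened for a library far from the others of its group (Dixon's criterion at 95%), in 27 groups of 4 to 7 libraries, of which chance alone flags about 1 in 20. In 2 groups a library stood apart. WT replicate 3 had the highest Ccl6 level of WT, at 4.35 log2 RPKM against 2.83 to 3.45 in the other 6. TG Me-X04- replicate 5 had the lowest Ccl9 level of its group, at 3.59 against 4.35 to 4.55 in the other 4.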

How the results depend on the processing

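The counts of DE genes among the 9 stayed within 1.5 times of the reported ones in every alternative for TG Me-X04+ against TG Me-X04- (2 to 4, reported 3) and against WT (4 to 7, reported 6), and for the difference of the steps (0 throughout). For TG Me-X04- against WT the 2 DE genes became 4 with library weights, which added Ccl4 (log2FC 2.00) and Ccl6 (0.84). They became 1 with a pseudocount of 1, a mean log2 RPKM of at least 0, voom or set B alone. With set A alone the count was 0, where 0 of all genes were DE, against 36 in the main fit. Without 1 library at a time the count stayed at 2. Ccl3 and Ccl6 remained DE between stained and unstained transgenic cells in every alternative (adjusted p up to 0.0216 and 0.0437).

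As a replicate block, the animal as a random term left all calls of the 9 genes as they were, and the replicate number as a fixed term left 1 DE gene (Ccl3) for TG Me-X04- against WT, where the number does not pair animals. Over all genes, 986 were DE between stained and unstained transgenic cells, 2110 with the animal block, 2142 with a term for the 2 sets, 470 with those groups alone, 85 within set A and 2262 within set B.

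Signs turned only where no test was passed. In TG Me-X04+ against TG Me-X04- this was Ccl2 with library weights (−0.29), voom (−0.022), scaling to non-mitochondrial reads (−0.23) and set B alone (−0.48) and without single libraries (−0.38 to 1.00), Ccl12 with quantile normalization (−0.082) and that scaling (−0.060), and Ccr1 without single libraries (−1.59 to 0.11). In TG Me-X04- against WT it was Ccr1 with library weights (0.54) or set B alone (1.01) and without single libraries (−0.44 to 0.25), and in TG Me-X04+ against WT Ccr1 with set B alone (0.47). For the difference of the steps it was Ccl3 with library weights (−0.087), quantile normalization (−0.25) and set B alone (−0.080), Ccl4 with set B alone (−0.15) and Cxcr4 with a pseudocount of 1 (0.23). The cause was not tested. Set A holds 2 libraries per transgenic group, and depth limits the genes with few reads (Ccl2, Ccr1, Cxcr4).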
